A study of Mus musculus with 9 samples.

Results

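A set of 7 genes that mark the pyramidal neurons of hippocampal area CA1 was followed in libraries of mouse brain: Gpr161, Wfs1, Fibcd1, Mpped1, Pou3f1, Man1a and Nov. They were chosen by symbol from the deposited expression table, where all 7 were found among 24489 rows and passed the filter that left 12327 rows for testing (1 FPKM or more on average over the 9 libraries). FPKM, the unit of the table, corrects the fragments of a gene for its transcript length and for the depth of the library. The study compared messenger RNA of area CA1 in mice that had received an adeno-associated virus (AAV) expressing a short hairpin RNA (shRNA), which lowers a transcript through RNA interference. The trained group carried an shRNA against the histone variant H2A.Z and had undergone contextual fear conditioning, a task that pairs a chamber with a foot shock. The naive group carried the same shRNA without that training, and the control group carried a scrambled shRNA. Each group had 3 libraries, labelled as biological replicates, from C57BL/J6 mice aged 9 to 12 weeks, and all 9 libraries therefore came from virus-infected tissue. The sources used here do not give the training of the control mice, the interval between training and dissection, the promoter of the shRNA or the cells that the virus reached.

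Area CA1 is the output field of the hippocampal circuit, and its excitatory pyramidal neurons receive input from area CA3. Each hippocampal field has its own set of genes, so that CA1 neurons can be told from those of CA2, CA3 and the dentate gyrus by genes such as Wfs1 and Fibcd1. H2A.Z replaces the ordinary histone H2A in nucleosomes that flank the start sites of genes, and in the mouse it is encoded by H2afz and H2afv. Several of the markers are proteins of membranes or of the secretory route, and Pou3f1 is a transcription factor.

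The promoter windows of members are shown because H2A.Z lies next to start sites and because promoters rich in the dinucleotide CG differ in their nucleosomes from those poor in it. RefSeq sequences of build GRCm38.p6, each running 250 bases before and 50 bases after a start site, were given for 5 of the 7 members, and Pou3f1 and Nov had no entry. Gpr161, with the estimate furthest from 0 among the members in naive against control libraries, has its first start site in a window at chr1:165295516-165295815 on the plus strand. Wfs1, the member with the highest level, has its window at chr5:36988933-36989232 on the minus strand. Man1a, the member nearest to the shared profile of the 7 genes, has its window at chr10:54075688-54075987 on the minus strand. Capitals mark each CG.
Gpr161: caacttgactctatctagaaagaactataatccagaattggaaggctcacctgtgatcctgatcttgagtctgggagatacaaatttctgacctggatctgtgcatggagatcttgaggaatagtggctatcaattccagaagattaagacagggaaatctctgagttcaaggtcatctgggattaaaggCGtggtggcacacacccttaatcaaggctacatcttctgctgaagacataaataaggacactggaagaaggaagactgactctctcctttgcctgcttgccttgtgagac
Wfs1: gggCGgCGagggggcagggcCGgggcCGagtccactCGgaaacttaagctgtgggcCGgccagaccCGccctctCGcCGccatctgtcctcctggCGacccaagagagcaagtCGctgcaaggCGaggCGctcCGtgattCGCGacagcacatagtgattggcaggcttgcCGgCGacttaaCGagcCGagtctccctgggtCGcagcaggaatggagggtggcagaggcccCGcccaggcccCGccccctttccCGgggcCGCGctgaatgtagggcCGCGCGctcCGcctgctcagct
Man1a: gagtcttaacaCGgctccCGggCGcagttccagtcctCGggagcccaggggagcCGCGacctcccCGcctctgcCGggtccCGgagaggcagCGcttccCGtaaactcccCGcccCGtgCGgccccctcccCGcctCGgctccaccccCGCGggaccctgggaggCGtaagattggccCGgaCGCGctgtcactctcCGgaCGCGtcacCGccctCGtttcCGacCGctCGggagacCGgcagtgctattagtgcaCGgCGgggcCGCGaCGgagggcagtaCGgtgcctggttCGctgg
The Gpr161 window held 1 CG, and 94.6% of all 32851 promoter windows held at least as many. Its second start site had 5. Wfs1 held 30 (11.7% of windows held at least as many), Man1a 38 (4.95%) and Fibcd1 46 (1.65%). Mpped1 had 59 at its first start site (0.1%) and 3 at its second, against a median of 7.0 over all windows. Both Gpr161 windows were thus below the median, and the other 4 members each had a start site above it.

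Of 5 motifs searched on both strands, CAGATG was the only one found in the members' windows. It is a form of the E-box bound by basic helix-loop-helix factors. It was read as CATCTG once in Gpr161, 70 bases before the first start site, and once in Wfs1, 164 bases before the start site, and 17.2% of all windows held it. The octamer ATGCAAAT, the motif of POU factors, was held by 1.74% of windows, the cyclic AMP response element TGACGTCA by 1.79%, the E-box CAGCTG by 16.3% and TATAAA by 13.6%. These letters were absent from the members' windows.

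The libraries were of similar depth. From the spacing of the lowest values, 1 FPKM stood for an estimated 18.7 to 27.4 fragments per kilobase, so that the members, at 9.02 FPKM and above in every library, rested on many fragments. No difference was called in the transcripts that encode H2A.Z, and the labels do not say which of them the shRNA targets. H2afz averaged 26.0 ± 2.31 FPKM in trained, 27.0 ± 1.63 FPKM in naive and 27.1 ± 1.43 FPKM in control libraries (SD, n = 3 each), and H2afv 14.2 ± 1.04, 15.6 ± 0.217 and 15.0 ± 0.993 FPKM in that order. Both H2A.Z shRNA groups against control gave log2 fold changes of -0.03 (SE 0.06) for H2afz and -0.01 (SE 0.05) for H2afv (limma adjusted p = 0.844 and 0.939), so the groups are called here by their labels. Control replicate 3 stood apart in choroid plexus genes, with Ttr, the transthyretin gene, at 764 FPKM, against 33.2 and 132 FPKM in the other control libraries. Neuronal genes were present at high level in every library, with Slc17a7, the vesicular glutamate transporter of forebrain excitatory neurons, at 264 to 275 FPKM in trained, 272 to 290 FPKM in naive and 258 to 300.2 FPKM in control libraries.

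Measured against all genes tested, the 7 markers were well expressed and none was at 0 in any library. Wfs1 averaged 81.0 FPKM over the 9 libraries, which placed it in the top 5.0% of genes. Mpped1 followed with 72.3 FPKM (top 5.84%), Nov with 57.2 FPKM (top 8.05%), Pou3f1 with 36.4 FPKM (top 13.9%) and Fibcd1 with 31.6 FPKM (top 16.5%). Man1a, at 22.4 FPKM, lay in the top 24.2%, and Gpr161, at 14.2 FPKM, in the top 36.8%. The order of the group means was the same in trained, naive and control libraries. The ranges of the neighbours Wfs1 and Mpped1 overlapped in all 3 groups, and so did those of Pou3f1 and Fibcd1. Mpped1 and Nov, and likewise Fibcd1 and Man1a, overlapped in the control libraries only, and Nov stood apart from Pou3f1, and Man1a from Gpr161, in every group.

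Gpr161, Wfs1 and Fibcd1 are receptors or membrane proteins. Gpr161 (ENSMUSG00000040836.15; GRCm38 chromosome 1, 165295789 to 165326745, plus strand) encodes a G-protein-coupled receptor of the primary cilium that holds back Hedgehog signalling. Its level was 13.8, 16.6 and 15.9 FPKM in trained libraries, 9.02, 12.4 and 10.6 FPKM in naive libraries, and 16.1, 16.3 and 16.9 FPKM in control libraries. The 3 naive libraries were the lowest of the 9, below every trained and every control library, while the trained and control ranges overlapped. The control libraries were close to each other, with a coefficient of variation of 2.57%, the smallest of any member in any group.

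Wfs1 (ENSMUSG00000039474.13; chromosome 5, 36966104 to 36989205, minus strand) encodes wolframin, a membrane protein of the endoplasmic reticulum whose loss causes Wolfram syndrome. It stood at 78.5, 78.2 and 101.9 FPKM in trained libraries, 61.2, 72.1 and 75.8 FPKM in naive libraries, and 76.8, 84.8 and 99.6 FPKM in control libraries. All 3 naive libraries again lay below the other 6, but the gap was narrow: the highest naive library was within 1 FPKM of the lowest control library. Fibcd1 (ENSMUSG00000026841.7; chromosome 2, 31813290 to 31846005, minus strand) encodes a transmembrane receptor that binds chitin and other acetylated structures. It stood at 31.0, 29.7 and 36.8 FPKM in trained libraries, 26.4, 33.3 and 26.8 FPKM in naive libraries, and 26.6, 29.0 and 44.9 FPKM in control libraries. These ranges overlapped in every pair of groups, and the control libraries spread the most, with a coefficient of variation of 29.7%.

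Man1a is an enzyme of the Golgi, and Nov is secreted. Man1a (ENSMUSG00000003746.16; chromosome 10, 53904785 to 54076609, minus strand) encodes a mannosidase that trims N-glycans in the Golgi. It stood at 19.5, 24.2 and 25.7 FPKM in trained libraries, 18.3, 20.3 and 19.6 FPKM in naive libraries, and 21.5, 22.5 and 29.8 FPKM in control libraries. The naive libraries lay below all control libraries, and trained replicate 1 lay within the naive range. On the opposite strand Man1a overlaps Gm16998, which averaged 0.884 FPKM, and Gm47917, and no source used here states whether the counting used strand. Nov (Ccn3 in the GENCODE annotation, ENSMUSG00000037362.8; chromosome 15, 54745702 to 54754039, plus strand) encodes a secreted protein of the extracellular matrix from the CCN family. It stood at 42.4, 57.7 and 49.0 FPKM in trained libraries, 60.4, 61.8 and 52.9 FPKM in naive libraries, and 62.9, 50.6 and 77.5 FPKM in control libraries. All groups overlapped, and the lowest library of the 9 was trained replicate 1, where for the other 6 members it was naive replicate 1.

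The remaining members act inside the cell. Pou3f1 (ENSMUSG00000090125.3; chromosome 4, 124656807 to 124660655, plus strand) encodes a transcription factor of the POU family, known from Schwann cells, where it drives the onset of myelination. It stood at 31.5, 40.4 and 40.1 FPKM in trained libraries, 28.9, 33.0 and 31.8 FPKM in naive libraries, and 34.0, 41.6 and 46.4 FPKM in control libraries. The naive libraries lay below all control libraries, and trained replicate 1 fell inside the naive range. An antisense gene, Gm2164, overlaps it. Mpped1 (ENSMUSG00000041708.12; chromosome 15, 83779467 to 83858494, plus strand) encodes a protein with a metallophosphoesterase domain. It stood at 63.3, 72.3 and 78.6 FPKM in trained libraries, 62.6, 71.5 and 63.0 FPKM in naive libraries, and 63.3, 78.2 and 98.0 FPKM in control libraries. Its ranges overlapped in every pair of groups, and the lowest values of the groups were close, at 63.3, 62.6 and 63.3 FPKM in trained, naive and control libraries.

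**Figure D1:**
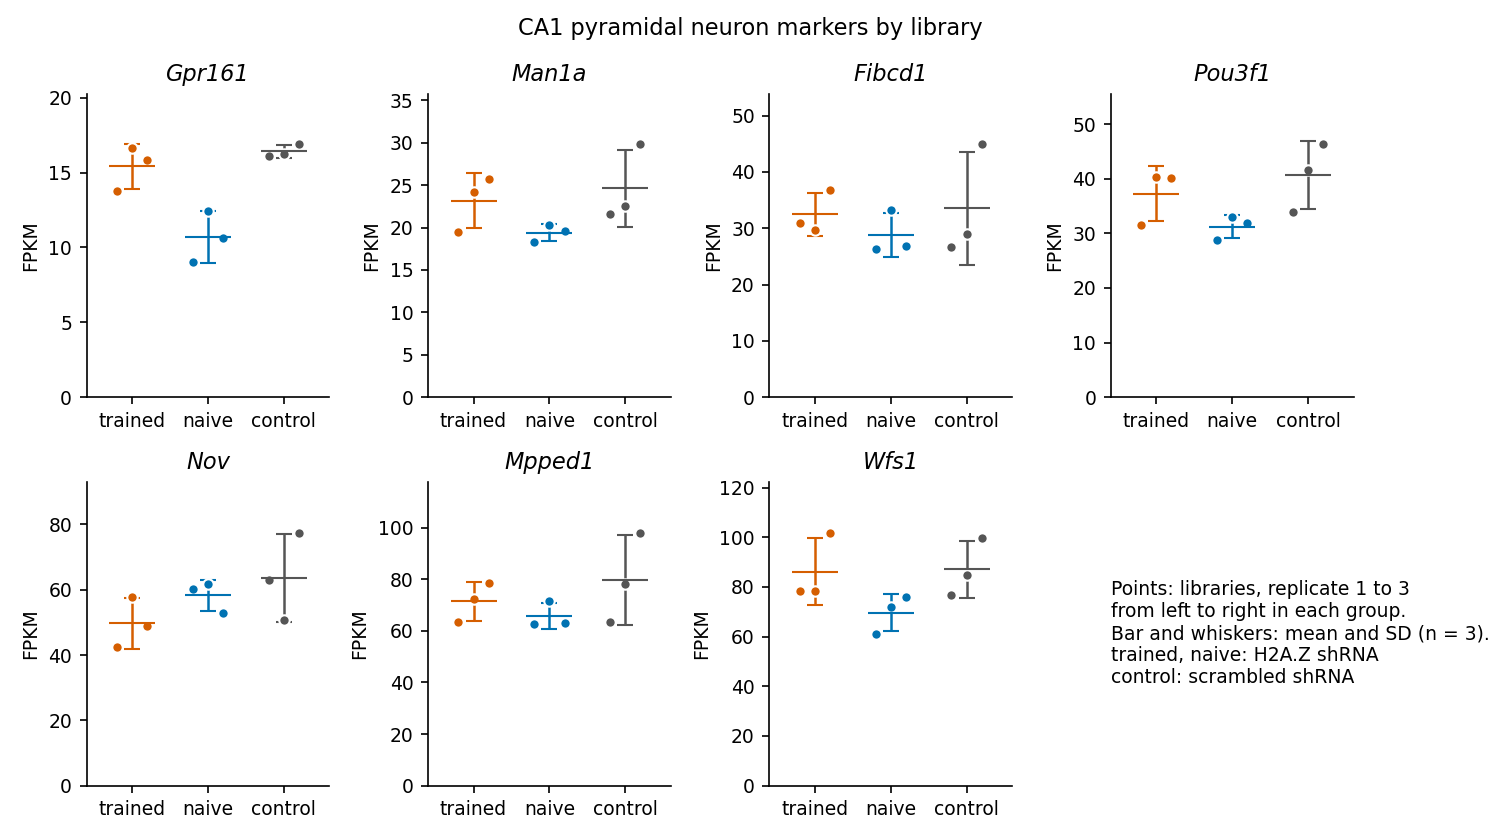
Level of each of the 7 CA1 markers (vertical axis, FPKM, from 0) in trained, naive and control libraries, with a point per library, a bar at the mean and whiskers of 1 SD (n = 3). The naive points of Gpr161, Wfs1, Man1a and Pou3f1 lie below all control points, and the Gpr161 naive mean of 10.7 FPKM compares with 16.4 FPKM in control libraries.

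In naive against control, which sets the H2A.Z shRNA in untrained mice against the scrambled shRNA, no member passed the test, and Gpr161 came nearest. Gpr161 averaged 10.7 ± 1.71 FPKM in naive and 16.4 ± 0.422 FPKM in control libraries (SD, n = 3 each), a ratio of means of 0.652. Its log2 fold change on the log2(FPKM + 1) scale was -0.58 (SE 0.10; limma adjusted p = 0.188, unadjusted p = 0.000381), with a 95% confidence interval of -0.82 to -0.35. The p was adjusted over all 12327 genes, of which 0.0% passed in this comparison and 1911 had an unadjusted p under 0.05. Exact permutation of 3 against 3 libraries cannot give a two-sided p below 0.1, so the single-gene values rest on the fit across all genes.

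Pou3f1 averaged 31.2 ± 2.12 FPKM in naive and 40.7 ± 6.23 FPKM in control libraries, with a log2 fold change of -0.36 (SE 0.13, limma adjusted p = 0.266). Man1a and Wfs1, at 19.4 ± 1.00 and 69.7 ± 7.61 FPKM in naive libraries, against 24.6 ± 4.54 and 87.1 ± 11.6 FPKM in control libraries, had log2 fold changes of -0.32 and -0.31 (SE 0.13 each, limma adjusted p = 0.311 and 0.314). Mpped1, Fibcd1 and Nov had smaller estimates of -0.26 (SE 0.15), -0.18 (SE 0.18) and -0.11 (SE 0.16), with limma adjusted p between 0.427 and 0.776. Thus 4 of 7 members, Gpr161, Pou3f1, Man1a and Wfs1, had naive ranges wholly below the control range, as had 8.23% of all genes, and the same 4 had an unadjusted p under 0.05, as had 5.69% of all genes in that direction. All 7 estimates were below 0, where 44.8% of all genes were, and their median was -0.31, beside 0.02 over all genes. Markers of dentate granule neurons lay the other way in the same comparison, with 10 of 10 above 0 and a median of 0.79. Of these, 8 had an unadjusted p under 0.05, all in the higher direction. The number of all genes with such a p, given above, covers both directions, and 702 of those genes were lower. With the mean of these markers per library as a covariate, the members had a median of -0.02, with 4 of 7 below 0. The dentate markers deviated by 0.47, 0.17 and 0.42 log2 units in naive and by 0.20, -0.55 and -0.73 in control libraries. The covariate thus takes up part of the group difference itself, and its fit cannot tell dentate content from group. In bulk tissue, a smaller share of CA1 neurons in the dissected tissue and less RNA per CA1 neuron cannot be told apart. These 7 values are not independent, since members that vary together across libraries also share a sign.

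**Figure D2:**
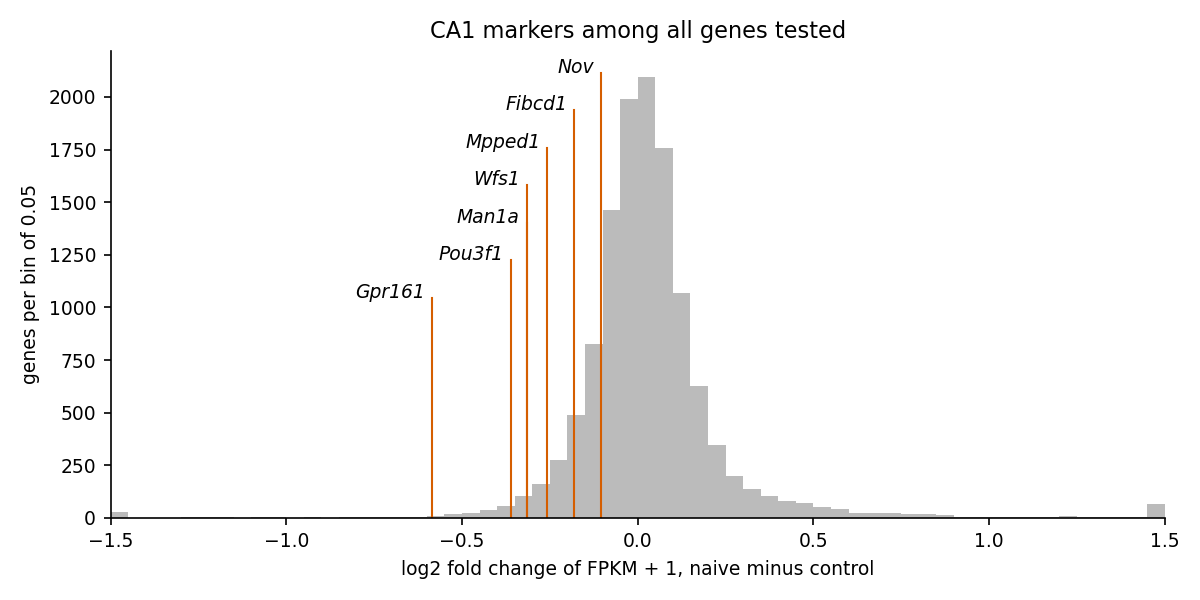
Number of tested genes (vertical axis) by log2 fold change of FPKM + 1, naive minus control (horizontal axis, bins of 0.05 units). The outermost bars hold every gene beyond the axis, and orange lines mark the 7 members, with Man1a and Wfs1 at nearly the same value. All members lie left of 0, with Gpr161 at -0.58 the furthest.

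The values of naive against control rested in part on control replicate 3, the library in which 6 of the 7 members were highest. Without it the median was -0.18, 5 of 7 estimates were below 0, and Fibcd1 (0.04) and Nov (0.05) were above. The Gpr161 estimate lay between -0.69 and -0.48 when any 1 library was left out (limma adjusted p between 0.090 and 0.465). For Gpr161 itself control replicate 3 lay near its own group, at 16.9 FPKM beside 16.1 and 16.3 FPKM.

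In trained against control, the estimates of 6 members were nearer to 0 than in naive against control, and that of Nov was further from it. Both contrasts share the 3 control libraries, so the values are given side by side. Gpr161, at 15.4 ± 1.48 FPKM in trained and 16.4 ± 0.422 FPKM in control libraries, had a log2 fold change of -0.09 (SE 0.10, limma adjusted p = 0.810), with a 95% confidence interval of -0.33 to 0.15. Wfs1, at 86.2 ± 13.6 FPKM in trained and 87.1 ± 11.6 FPKM in control libraries, gave -0.02 (SE 0.13), and Fibcd1, at 32.5 ± 3.80 and 33.5 ± 9.96 FPKM in the same order, gave -0.01 (SE 0.18). The estimate furthest from 0 belonged to Nov, at 49.7 ± 7.70 FPKM in trained and 63.7 ± 13.5 FPKM in control libraries: -0.34 (SE 0.16, limma adjusted p = 0.649), with a 95% confidence interval of -0.70 to 0.02. Mpped1 (-0.14), Pou3f1 (-0.12) and Man1a (-0.08) lay between. No member passed, where 0.00811% of all genes did, and for 0 of 7 members was the trained range wholly below the control range, as it was for 6.08% of all genes. All 7 estimates were below 0, where 52.7% of all genes were, but they were small, with a median of -0.09. The count below 0 was 3 of 7 without control replicate 3 and 2 of 7 with the dentate covariate. It was 4 of 7 without trained replicate 1 and 5 of 7 without trained replicate 2.

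With both H2A.Z shRNA groups set against control, Gpr161 had a log2 fold change of -0.34 (SE 0.09, limma adjusted p = 0.320), and an exact permutation over the 84 ways to choose 3 of 9 libraries gave p = 0.107 (two-sided). Pou3f1 had -0.24 (SE 0.11), Nov -0.22 (SE 0.14), Mpped1 and Man1a -0.20 (SE 0.13 and 0.11), Wfs1 -0.17 (SE 0.11) and Fibcd1 -0.10 (SE 0.16). For these the limma adjusted p lay between 0.403 and 0.807, and the exact permutation p between 0.143 and 0.595. No member passed, beside 0.0% of all genes (1526 of them with an unadjusted p under 0.05), and 1 of 7, Gpr161, had an unadjusted p under 0.05 in the lower direction, as had 5.26% of all genes. All 7 estimates were below 0, where 47.9% of all genes were, with a median of -0.20. Without control replicate 3 the median was -0.07 with 6 of 7 below 0, and with the dentate granule markers as a covariate it was 0.02 with 3 of 7 below 0. No member had all 6 H2A.Z shRNA libraries below the control range, which 2.0% of all genes had. Trained libraries of each member reached into the control range.

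Trained against naive compares training within the mice that received the H2A.Z shRNA. Its estimates use no control library, while its SE, confidence intervals and p come from the fit to all libraries. Gpr161 was at 15.4 ± 1.48 FPKM in trained and 10.7 ± 1.71 FPKM in naive libraries (SD, n = 3 each), with a ratio of means of 1.44. Its log2 fold change was 0.49 (SE 0.10; 95% confidence interval 0.26 to 0.73; limma adjusted p = 0.483, unadjusted p = 0.00118), and all 3 trained libraries lay above all 3 naive libraries. Wfs1, at 86.2 ± 13.6 FPKM in trained and 69.7 ± 7.61 FPKM in naive libraries, gave 0.30 (SE 0.13, limma adjusted p = 0.603), again with no overlap. Pou3f1 and Man1a gave 0.24 each (SE 0.13), Fibcd1 0.17 (SE 0.18) and Mpped1 0.11 (SE 0.15). Nov ran the other way, with 49.7 ± 7.70 FPKM in trained and 58.4 ± 4.74 FPKM in naive libraries and a log2 fold change of -0.24 (SE 0.16, limma adjusted p = 0.711). No member passed, where 0.00811% of all genes did. The trained range lay wholly above the naive range for 2 of 7 members, and for 5.79% of all genes, and 6 of 7 estimates were above 0, beside 41.3% of all genes. Gpr161 was the 1 member with an unadjusted p under 0.05 in the higher direction, which 2.74% of all genes had. The median of the members was 0.24, and 0.08 with the dentate covariate, and that of all genes was -0.02.

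**Figure D3:**
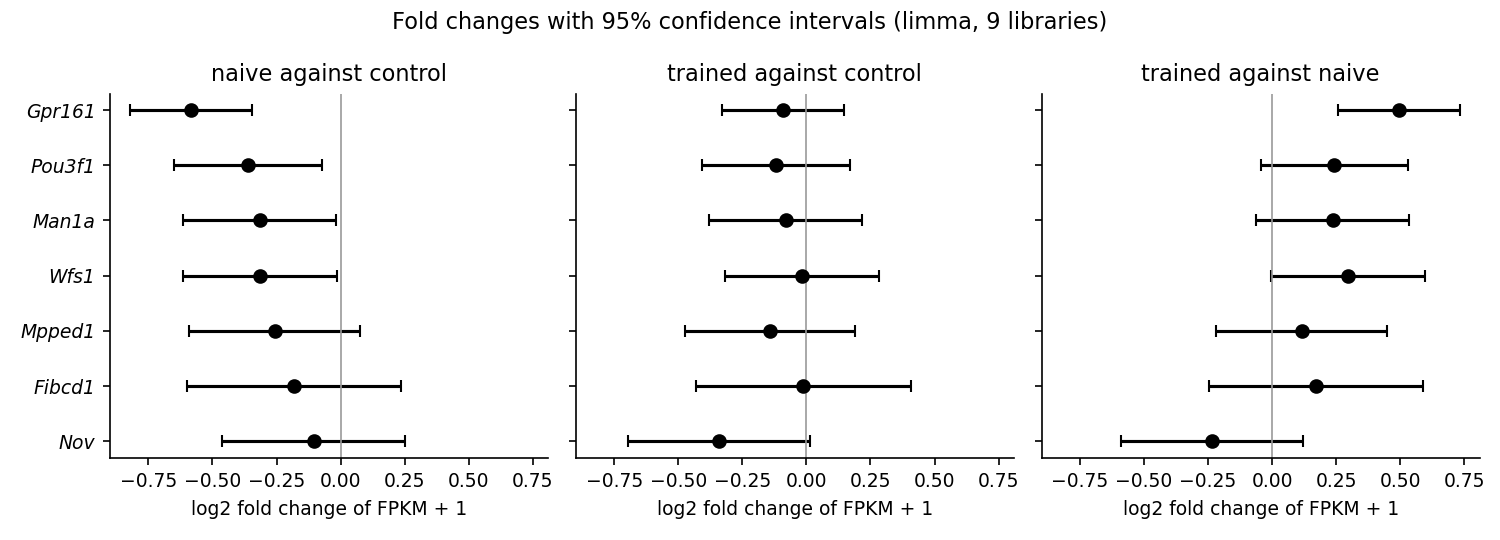
Log2 fold change of FPKM + 1 (horizontal axes) of each member in naive against control, trained against control and trained against naive, with 95% confidence intervals from limma (n = 3 libraries per group). The Gpr161 interval lies away from 0 in the first panel (-0.82 to -0.35) and the last (0.26 to 0.73) and spans 0 in the middle panel, and Nov lies below 0 in each panel.

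The members, apart from Nov, largely varied together from library to library. Expressed as the log2 deviation of each gene from its own mean over the 9 libraries, the members averaged -0.14, 0.07 and 0.15 in trained libraries, -0.26, -0.05 and -0.18 in naive libraries, and -0.03, 0.06 and 0.39 in control libraries. The naive libraries were all below the overall mean, while the trained and the control libraries lay on both sides of it. In control replicate 3 all 7 members were above their own mean, and in trained replicate 1 and naive replicate 3 none was. The highest library of each member was control replicate 3, apart from Wfs1, which was highest in trained replicate 3. From lowest to highest library, the members spanned between 1.57-fold (Mpped1) and 1.87-fold (Gpr161).

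Man1a followed the shared profile most closely, with a root mean square distance of 0.04 log2 units, and Mpped1 and Pou3f1 came next, at 0.07 each. Wfs1 (0.11) and Fibcd1 (0.12) lay further off, and Gpr161 (0.18) and Nov (0.22) the furthest. The root mean square of a gene's own deviations was 0.20 for Man1a, 0.28 for Gpr161 and 0.23 for Nov. The distance of Nov from the profile was thus nearly as large as its own spread. Relative to the mean of the other 6 members in the same library, Gpr161 deviated by 0.15, 0.20 and 0.03 log2 units in trained libraries, by -0.36, -0.12 and -0.21 in naive libraries and by 0.27, 0.18 and -0.15 in control libraries. It was thus below the other members in each naive library and above them in each trained library. Nov deviated by -0.31, -0.04 and -0.41 in trained libraries, by 0.42, 0.20 and 0.10 in naive libraries and by 0.21, -0.25 and 0.07 in control libraries. Nov was thus the reverse of Gpr161 in these respects, below the others in each trained and above them in each naive library. Gpr161 and Nov each enter the mean against which the other is set, which by itself favours opposite signs.

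Of 8146 other genes that averaged 5 FPKM or more, the 5 nearest to the members' mean profile over the 9 libraries were Zdhhc2, Prkcb, Khdrbs3, Raver2 and Asap2. Their root mean square distances from it were 0.03 to 0.05 log2 units. Zdhhc2, a palmitoyl transferase gene, averaged 30.4 FPKM in trained, 25.4 FPKM in naive and 32.0 FPKM in control libraries. Prkcb, which encodes protein kinase C beta, averaged 162, 141 and 172 FPKM in the same order, and Khdrbs3, an RNA-binding protein gene, 106.2, 93.7 and 115 FPKM. These genes were picked for their likeness, so the match is a description.

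**Figure D4:**
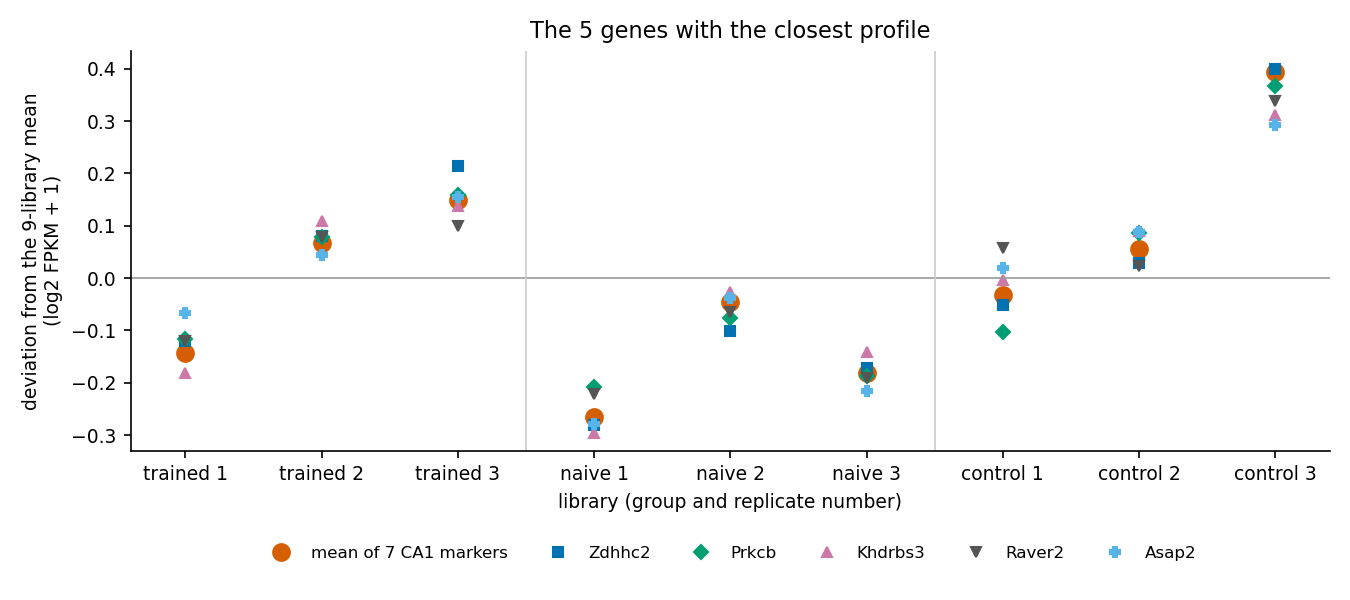
Log2 deviation from the 9-library mean (vertical axis, log2 FPKM + 1) of the mean of the 7 members and of the 5 genes nearest to it, in each of the 9 libraries (horizontal axis). The members' mean runs between -0.26 in naive replicate 1 and 0.39 in control replicate 3, and the 5 genes lie within a narrow band around it in every library.

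The sum of a further 5 genes enriched in CA1 pyramidal neurons gave a similar picture, while Crym and Etv1 differed from the members. Summed, Spink8, Ndst4, Neurod6, Crym and Etv1 stood at 223, 271 and 283 FPKM in trained libraries, 219, 258 and 236 FPKM in naive libraries, and 237, 269.7 and 317 FPKM in control libraries. The members summed to 279.8, 319 and 348 FPKM in trained libraries, 267, 304 and 281 FPKM in naive libraries, and 301, 323 and 413 FPKM in control libraries. In naive against control, 4 of the 5 further genes were below 0, with a median of -0.32, none passed, and Crym, named after its value was seen, was above, at 0.07. Ndst4, a heparan sulfate sulfotransferase gene, averaged 11.8 ± 1.30 FPKM in trained, 9.24 ± 0.644 FPKM in naive and 12.3 ± 0.826 FPKM in control libraries, with log2 fold changes of -0.38 (SE 0.08, limma adjusted p = 0.220) in naive against control and 0.32 (SE 0.08, limma adjusted p = 0.556) in trained against naive. Its naive range lay below both others, as that of Gpr161 did. Etv1, a transcription factor gene of the ETS family, averaged 26.7 ± 9.07, 23.1 ± 1.79 and 30.7 ± 6.10 FPKM in trained, naive and control libraries, and its ranges overlapped. In control replicate 3, where most members were highest, Etv1 was the lowest of the control libraries, at 24.5 FPKM beside 31.0 and 36.7 FPKM.

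Markers of the neighbouring dentate gyrus ran opposite to the members across the libraries. The 10 dentate granule cell genes summed to 223, 129.9 and 154 FPKM in trained libraries, 238, 181 and 232 FPKM in naive libraries, and 189.9, 105.6 and 92.3 FPKM in control libraries, and none was at 0 in any library. Prox1, the defining transcription factor of granule cells, stood at 24.2, 14.1 and 16.2 FPKM in trained libraries, 28.9, 19.7 and 24.7 FPKM in naive libraries, and 18.9, 11.8 and 9.66 FPKM in control libraries. Every naive value of Prox1 was above every control value. None of the 10 passed in any comparison. In trained against control the median was 0.38, and in trained against naive it was -0.37, with 9 of 10 below 0. Of all genes, 41.3% were above 0 in trained against naive. In the fit with the mean of these genes per library as a covariate, Fibcd1 (0.14), Mpped1 (0.11) and Nov (0.10) were above 0 in naive against control, Gpr161 was at -0.42 (limma adjusted p = 0.266), and at 0.41 in trained against naive (limma adjusted p = 0.227).

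**Figure D5:**
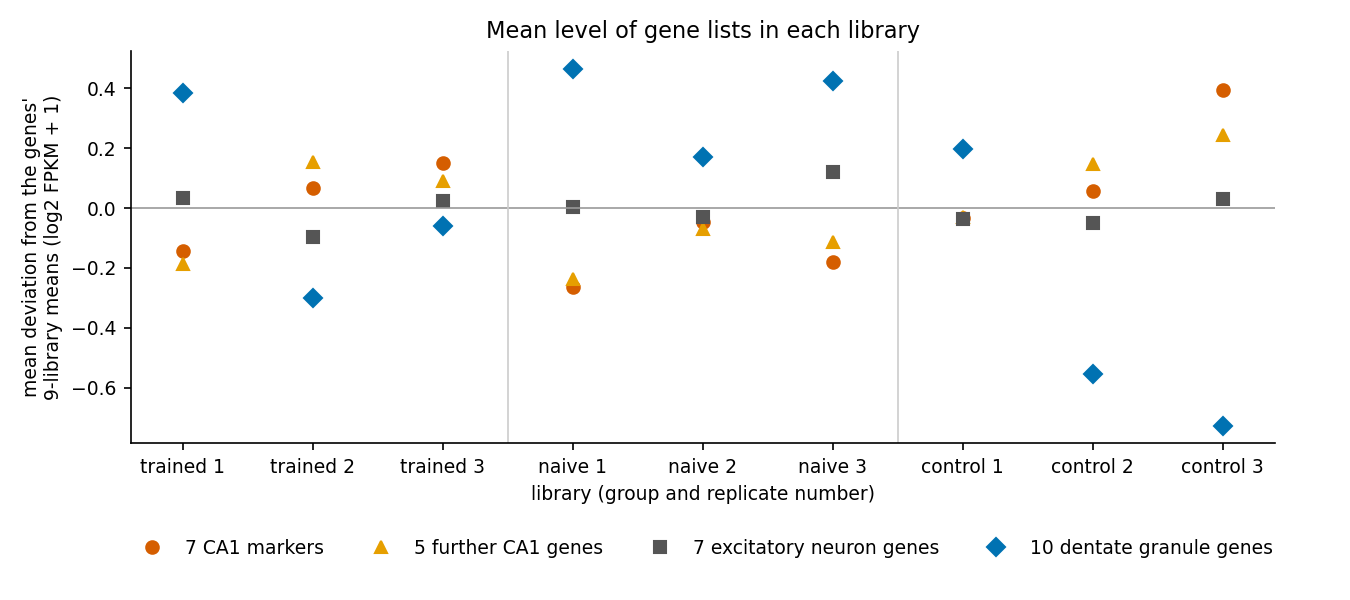
Mean log2 deviation from the genes' 9-library means (vertical axis) of the 7 members, 5 further CA1 genes, 7 excitatory neuron genes and 10 dentate granule cell genes in each library (horizontal axis). The dentate points are high in the naive libraries (0.47, 0.17 and 0.42) and low in control replicates 2 and 3 (-0.55 and -0.73), and the CA1 points are below 0 in the naive libraries and highest in control replicate 3, while the excitatory neuron points run between -0.10 and 0.12.

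Genes shared by all excitatory neurons gave estimates on both sides of 0. The 7 genes of that list summed to 2390 to 2540 FPKM in trained, 2422 to 2567 FPKM in naive and 2417 to 2624 FPKM in control libraries, and in naive against control 4 were above 0 and 3 below (median 0.03, none passed). Slc17a7 averaged 269 ± 5.62 FPKM in trained, 283 ± 9.19 FPKM in naive and 277 ± 21.1 FPKM in control libraries. Markers of CA3 neurons had a median of 0.18 in naive against control, those of CA2 neurons 0.03, those of GABAergic interneurons -0.12, those of all neurons -0.13, those of subiculum and neocortex -0.12 and those of endothelial cells 0.14. The subiculum and neocortex genes summed to 29.0, 58.1 and 33.4 FPKM in trained libraries. Their sums were 40.5, 37.0 and 39.1 FPKM in naive and 45.4, 65.3 and 39.3 FPKM in control libraries. Trained replicate 2 and control replicate 2 thus stood above the other libraries. The defining genes Grik4, Rgs14 and Gad1 averaged 5.42 ± 0.621, 31.1 ± 0.760 and 78.4 ± 0.990 FPKM in naive libraries, against 3.78 ± 1.096, 29.9 ± 5.32 and 85.4 ± 7.25 FPKM in control libraries.

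Glial and choroid plexus markers were read in the same libraries. In naive against control, 8 of 8 microglial genes were above 0 (median 0.44), 7 of 7 astrocyte genes were above 0 (0.17), 7 of 7 oligodendrocyte genes were below 0 (-0.24), and none passed. Of all genes, 44.8% were below 0. Microglial sums were 159 to 203 FPKM in trained, 158 to 255 FPKM in naive and 124 to 153 FPKM in control libraries. Aif1, a defining gene of microglia, averaged 8.23 ± 1.82 FPKM in trained, 12.3 ± 6.14 FPKM in naive and 6.08 ± 0.411 FPKM in control libraries. Naive replicate 2 held the highest microglial sum, beside 158 and 174 FPKM in the other naive libraries. Its Aif1 value was 19.3 FPKM, beside 8.03 and 9.49 FPKM in those libraries. The choroid plexus list summed to 45.2 to 106.6 FPKM in trained, 12.0 to 30.4 FPKM in naive and 39.8 to 796 FPKM in control libraries, with Folr1 listed at 0 in naive replicate 1. Ttr stood at 92.7, 38.4 and 96.4 FPKM in trained libraries and at 5.77, 12.5 and 23.4 FPKM in naive libraries, below every control library. The part of these cell types in the members' differences was not tested.

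Genes of the pathways and families of the members had medians nearer to 0 than the members in naive against control. Of 12 Hedgehog and cilium genes chosen as partners of Gpr161, 10 passed the filter (Gli1 and Gli2 did not), 7 were above 0 and 3 below in naive against control, with a median of 0.08, and none passed the test. Adcy3, the adenylyl cyclase of neuronal cilia, averaged 9.07 ± 1.30 FPKM in trained, 9.31 ± 0.362 FPKM in naive and 10.4 ± 0.402 FPKM in control libraries. Smo, the Hedgehog signal transducer, averaged 2.95 ± 0.149 FPKM in trained, 3.65 ± 0.258 FPKM in naive and 3.01 ± 0.207 FPKM in control libraries. Its naive libraries were thus above both other groups, where those of Gpr161 were below, with log2 fold changes of 0.21 (SE 0.07, limma adjusted p = 0.249) in naive against control and -0.24 (SE 0.07, limma adjusted p = 0.556) in trained against naive.

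Of 8 genes of the endoplasmic reticulum stress response, in which Wfs1 acts, none passed, 7 were below 0 and the median was -0.09 in naive against control. Of 8 further N-glycan trimming genes beside Man1a, none passed, and 4 were above and 4 below 0 (median 0.02). Man2a2, a later mannosidase of the same route, averaged 29.5 ± 0.805 FPKM in trained, 27.8 ± 0.762 FPKM in naive and 31.0 ± 1.33 FPKM in control libraries, and its naive range lay below both others. The gap to the trained libraries was narrow, with the highest naive library at 28.55 FPKM and the lowest trained library at 28.61 FPKM. The other 3 class III POU genes had a median of -0.10 and none passed. Pou3f2 averaged 2.79 ± 0.196, 2.88 ± 0.276 and 3.17 ± 0.269 FPKM in trained, naive and control libraries. Pou3f3 averaged 35.3 ± 2.52, 31.8 ± 0.720 and 34.4 ± 1.33 FPKM in trained, naive and control libraries, a level close to that of Pou3f1 itself. The naive range of Pou3f3 also lay below both others, by a narrow gap. Of the CCN family beside Nov, Cyr61 and Ctgf passed the filter, at means of 1.63 and 1.27 FPKM in naive and 1.26 and 1.82 FPKM in control libraries, and none passed the test. Mpped2, the closest relative of Mpped1, averaged 17.0 ± 0.500 FPKM in trained, 16.1 ± 1.52 FPKM in naive and 15.9 ± 1.38 FPKM in control libraries, with a log2 fold change of 0.01 (SE 0.08) in naive against control.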

How the data were processed

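RNA was measured in 9 libraries of area CA1, in 3 groups of 3 taken from the labels, which carry no replicate numbers. The libraries were directional, made from polyadenylated RNA with NEBNext reagents and read as 50 bp pairs (HiSeq2000), per the labels. The submitters' processing notes name FastQC, TopHat 1.4.0, Cufflinks, Cuffdiff and the build mm10. What the authors deposited is 1 table of FPKM values per gene and library, without counts. The sources used here do not give its gene annotation, its use of strand or the step that wrote it.

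Of 24489 rows, 27 named as dates and 5649 at 0 in every library were left out, and the 12327 with a mean of at least 1 FPKM were tested with limma 3.58.1 in R 4.3.3 on log2(FPKM + 1), a pseudocount that understates the change of low genes. One fit with 3 groups gave each contrast (trend on, 6 residual degrees of freedom), with Benjamini-Hochberg adjustment over all rows tested and a threshold of 0.05. For both H2A.Z shRNA groups against control, an exact permutation of the group difference was added for each member. The method was tested on simulated data. Depth was estimated from the spacing of the lowest values, since FPKM gives no counts. Coordinates come from GENCODE M21 on GRCm38, the assembly of mm10.

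The members and gene lists were chosen with earlier results of these data known, so their counts are descriptions. Genes named with their values from a list are among the up to 3 with the smallest unadjusted p in both H2A.Z shRNA groups against control, or the defining marker of a cell type, apart from Crym and from genes below the filter or listed at 0. The labels call the replicates biological without naming the animals behind them, and p-values measure the spread between these libraries. The alternatives tried were other scalings, pseudocounts, filters, weights and prior variances, the dentate gyrus markers as a covariate, fits of only the groups compared, and leaving out each library.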

Additional observations from a re-analysis of the deposited data

How the results depend on the processing

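No member of the CA1 set passed the threshold in the fit as reported or under any alternative, and of 497 alternative values of the members 469 kept the sign of the reported estimate and 28 did not, none of these with an adjusted p under 0.05. Many of the kept signs were fixed in advance. Filters, a robust prior variance and fits of only the groups compared leave an estimate as it was. So does leaving out a library of a group outside the contrast. The dentate covariate differed between the groups, so its fit cannot tell dentate content from group. With the dentate granule markers as a covariate, the sign turned in naive against control for Fibcd1 (0.14), Mpped1 (0.11) and Nov (0.10), in trained against control for Wfs1 (0.081), Fibcd1 (0.15), Mpped1 (0.047), Pou3f1 (0.057) and Man1a (0.069), in both H2A.Z shRNA groups against control for Fibcd1 (0.15), Mpped1 (0.079), Pou3f1 (0.018) and Man1a (0.021), and in trained against naive for Mpped1 (-0.063). In trained against control, quantile normalization turned Wfs1 (0.022) and Fibcd1 (0.014), and array quality weights turned Wfs1 (0.023). Leaving out each library gave ranges, in trained against control, of -0.14 to 0.082 for Wfs1, -0.15 to 0.21 for Fibcd1, -0.30 to 0.015 for Mpped1 and -0.17 to 0.060 for Man1a. They were -0.32 to 0.044 for Fibcd1 and -0.26 to 0.045 for Nov in naive against control, and -0.24 to 0.13 for Fibcd1 in both H2A.Z shRNA groups against control. The upper ends of these ranges came without control replicate 3. In trained against control, leaving out trained replicate 1 or trained replicate 2 also turned signs, with 4 of 7 and 5 of 7 members below 0. Genes of the whole table past the threshold numbered 0, 1, 0 and 1 in naive against control, trained against control, both H2A.Z shRNA groups against control and trained against naive. Without 1 library these became 0 to 15, 0 to 23, 0 to 36 and 0 to 22, with the highest counts of the first 3 without control replicate 1 and of the last without naive replicate 1. In naive against control, a filter of 5 FPKM gave 2 and array quality weights 3. In trained against control, no filter and the covariate each gave 0 and a fit of only the groups compared 3. In both H2A.Z shRNA groups against control, array quality weights gave 3, and in trained against naive the covariate and a fit of only the groups compared each gave 2. The cause was not tested. Median-of-ratios scaling and a pseudocount of 0.1 turned no member's sign, and a robust prior variance could not turn one. None of these settings moved the counts of genes past the threshold. No paired analysis was possible because the labels carry no replicate numbers. The precision is limited by 3 libraries per group.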
